A study of Mus musculus with 4 samples.

Results

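Pericytes are the mural cells of the brain's capillaries. They sit inside the basement membrane that they share with the endothelium, are recruited by endothelial PDGF-B acting on the receptor PDGFRB, and help to set capillary tone and to maintain the blood-brain barrier. In droplet libraries of brain vessels, a pericyte often stays attached to an endothelial cell, so that 1 barcode holds RNA of both. The barcodes described here are those with pericyte markers and almost no RNA of Cldn5, which encodes the endothelial tight junction protein claudin-5. They were 113 of 14864 barcodes that passed the general limits: 1000 UMIs and 500 detected genes or more, and no more than 10% of UMIs from the mitochondrial genome. A UMI, or unique molecular identifier, marks 1 captured RNA molecule.

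The members were chosen by their own counts. Vtn, Kcnj8, Abcc9, Atp13a5 and Pdgfrb had to reach 8 UMIs in sum, the smooth muscle genes Acta2, Tagln and Myh11 had to stay under 10 UMIs in sum, and Cldn5 could have at most 2 UMIs. Of the members, 96 held no Cldn5 UMI, 16 held 1 and 1 held 2. The lowest members had 9, 9 and 11 pericyte marker UMIs, and the highest barcodes that failed only this limit had 7, 7 and 5. The barcodes nearest outside the Cldn5 limit held 3, 7 and 8 UMIs, and those nearest outside the smooth muscle limit held 12, 14 and 16, against 9, 9 and 6 in the members nearest to it.

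The libraries came from brains of C57BL6 mice kept for 1 month either on a control diet (libraries control diet 1 and 2) or on a diet with 1200 ppm PLX5622 (libraries PLX5622 diet 1 and 2). PLX5622 inhibits the receptor CSF1R and removes most microglia. No age is given, meninges, cerebellum and olfactory bulbs had been taken away, and cells had been sorted for CD31, an endothelial surface protein, so any pericyte here passed an endothelial gate. The labels say that 3 brains served 2 libraries, so a library may pool animals or share 1 with the other, and p-values measure the spread between libraries only. The 10x Chromium 3' v3.1 libraries held 11186648 to 38600208 UMIs in all, and the median kept barcode held 3834 to 5921.5.

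The members were few and unevenly spread: 8 barcodes with 28590 UMIs in control diet 1, 38 with 183792 in control diet 2, 44 with 118028 in PLX5622 diet 1 and 23 with 100126 in PLX5622 diet 2. Their median depth was 2853 UMIs. As a share of kept barcodes they made up 0.472% (exact 95% binomial interval 0.204 to 0.927) and 0.690% (0.489 to 0.946) on control diet, and 1.10% (0.803 to 1.48) and 0.627% (0.398 to 0.939) on PLX5622. The intervals cover counting error only. The 2 diets overlapped: the means were 0.581 ± 0.154% and 0.865 ± 0.337% (SD, n = 2 each), a difference of 0.284 points with an exact two-sided permutation p = 0.667, where 2 against 2 libraries cannot go below 0.333. The CD31 sort can set this share. No member barcode was shared between libraries, although 21 kept barcodes were.

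**Figure D1:**
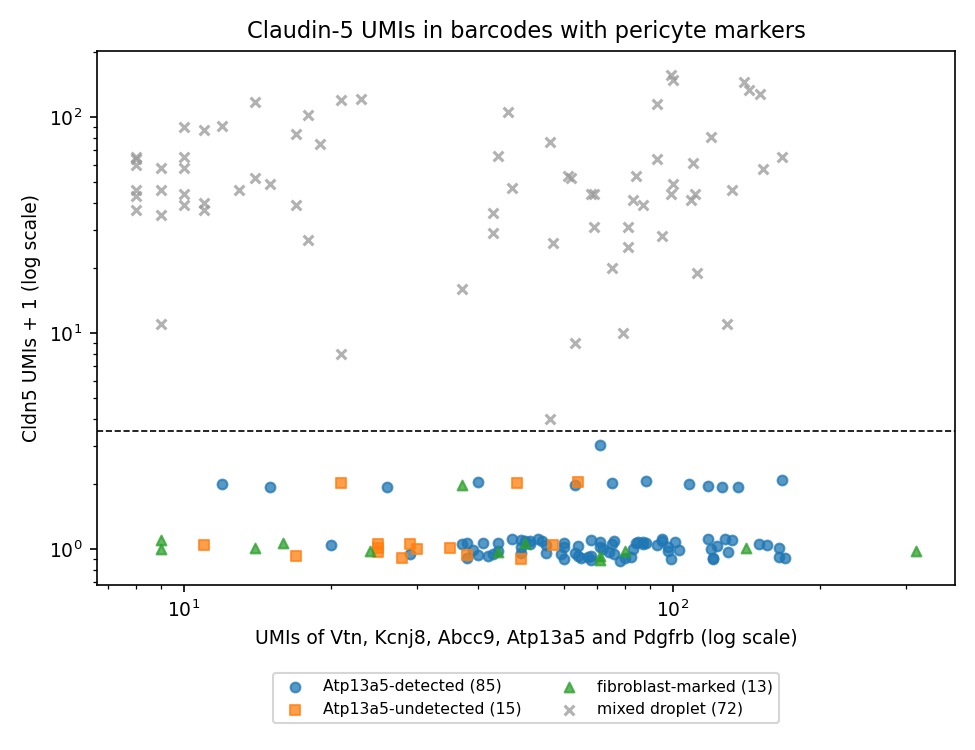
Each point is 1 of the 113 members or 72 mixed droplets, which meet the same marker limits but hold at least 3 Cldn5 UMIs; the x axis gives the UMIs of the 5 rule markers and the y axis Cldn5 UMIs plus 1, both on log scales, with members moved slightly at random in height. The dashed line is the Cldn5 limit: 1 mixed droplet lies at 3 UMIs, and members sit at 0 to 2.

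The limit on Cldn5 left a sparse zone around it. Of the 72 mixed droplets, 63 held over 20 Cldn5 UMIs, 8 held 6 to 20 and only 1 held 3 to 5. A panel of 15 other endothelial markers gave a second reading of endothelial RNA that the rule did not use. Set against endothelial cells of the same library (at least 5 Cldn5 UMIs and at most 2 pericyte marker UMIs), the panel put the endothelial part of the members' RNA at 3.04% and 7.18% in control diet 1 and 2 and at 4.95% and 3.32% in PLX5622 diet 1 and 2. In mixed droplets it was 65.1 to 86.6%, and in smooth muscle cells 1.52 to 2.09%. The highest member value, in control diet 2, owed 155 of its 314 panel UMIs to 1 barcode, which held no Cldn5 and no Atp13a5 UMI but 39 UMIs of Flt1 and 44 of Plvap, both endothelial genes. The other 2 members of that library without an Atp13a5 UMI or many fibroblast marker UMIs held 7 and 8 panel UMIs.

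The members did not all have the profile of a pericyte. Rgs5, a regulator of G protein signalling, is among the most abundant pericyte transcripts and lies outside the rule. Markers outside the rule, above all Rgs5, were present in most members and nearly absent from a small group. The barcodes of that group were mostly RNA-rich, with 1007 to 17886 UMIs. In 13 members, markers of fibroblasts (Dcn, Lum, Col1a1, Col1a2, Pdgfra, Apod, Igf2, Slc6a13 and Ogn) took more than 1% of all UMIs, and these are called fibroblast-marked below. Of the other 100, 85 held at least 1 UMI of Atp13a5, a P-type ATPase gene specific to brain pericytes, and 15 held none. Both lines were drawn after the counts had been seen, so values of these subsets are descriptions.

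Fibroblast-marked members passed the rule almost by Vtn alone. Vtn, which encodes the matrix protein vitronectin, gave 849 of their 880 rule marker UMIs (96.5%), against 72.6% in Atp13a5-detected members. Pdgfrb gave 28, Kcnj8 2, Atp13a5 1 and Abcc9 none. The 13 barcodes together held 1 Rgs5 UMI and no UMI of the pericyte genes Higd1b, Rgs4, Cox4i2, Art3 or Notch3. In the 85 Atp13a5-detected members, by contrast, Rgs5 had 2483 UMIs and was seen in all 85 barcodes.

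What the fibroblast-marked members held instead was RNA of matrix proteins and lipid carriers. Ptgds, the prostaglandin D synthase gene, had 6841 UMIs in them and none in the Atp13a5-detected members. Apod, encoding apolipoprotein D, had 2885 UMIs against 33, and Apoe 1572 against 38. The small matrix proteoglycan gene Dcn had 411 UMIs in 12 of the 13 barcodes, and the growth factor binding protein gene Igfbp2 had 343 against none. These barcodes had a median of 8225 UMIs, against 2733 in the Atp13a5-detected members, so that 13 of the 113 members carried 28.0% of all member UMIs. By the rule's own words they count as pericytes with little endothelial RNA, but their leading genes go against that name.

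The fibroblast-marked barcodes were not evenly spread either. Control diet 1 had none, control diet 2 had 6, PLX5622 diet 1 had 4 and PLX5622 diet 2 had 3. They supplied 0%, 32.3%, 21.5% and 35.7% of the members' UMIs in those libraries. The 15 Atp13a5-undetected members numbered 0, 3, 11 and 1 in the same order. All 8 members of control diet 1 were Atp13a5-detected, so this library alone had a single kind of member.

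**Figure D2:**
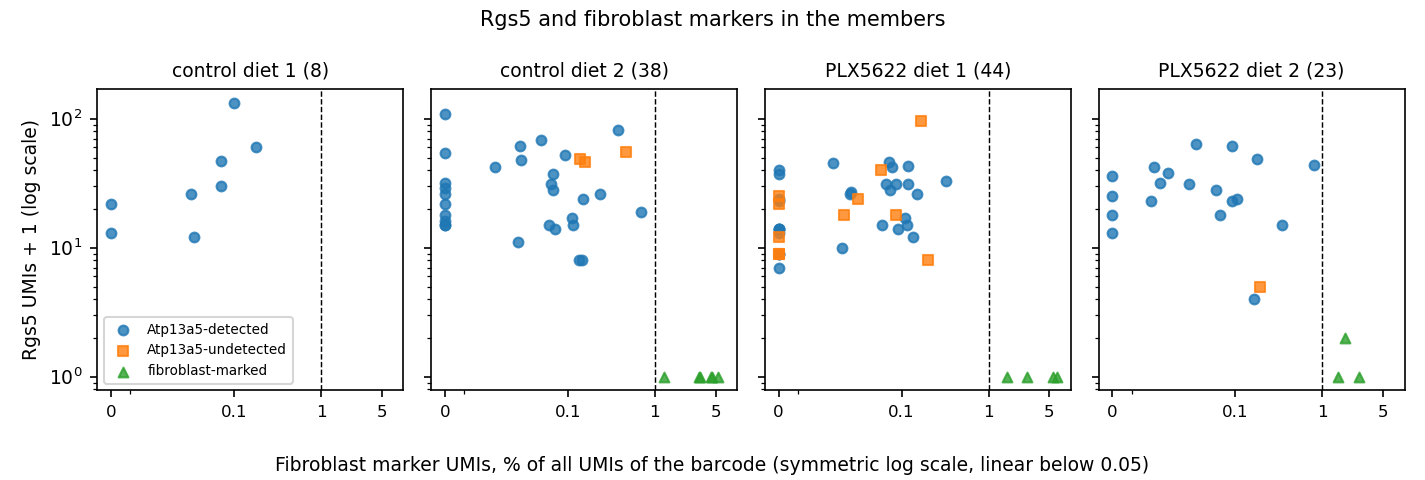
The 4 panels are the libraries, with the number of members in brackets; each point is a member, with fibroblast marker UMIs as a percentage of its UMIs on the x axis (dashed line at 1%) and Rgs5 UMIs plus 1 on a log y axis. The 13 fibroblast-marked members lie right of the line with 0 or 1 Rgs5 UMI, and control diet 1 has none of them.

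Markers of most other cell types were rare. Platelet markers had no UMI in any member (5 of 5 at 0), and microglia markers had 24 UMIs over 5 of 12 genes, with Cx3cr1, C1qa, Trem2 and Tyrobp at 0. Csf1r itself, the target of PLX5622, had 1 UMI among 430536. In PLX5622 diet 2, 1 fibroblast-marked barcode held all 358 Fabp7 UMIs of that library and 212 Npy UMIs. Red cell markers had 19 UMIs. Astrocyte markers had 246 UMIs over 5 of 9 genes, with Aqp4, Gfap, Mlc1 and Ntsr2 at 0. Of these UMIs, 238 lay in 12 of the 13 fibroblast-marked barcodes, 109 of them in 1 barcode, and 3 of the 4 astrocyte markers with at least 20 CPM were at least 10 times the endothelial mean. By library the astrocyte markers had 0, 69, 34 and 143 UMIs.

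The program of the members against endothelial cells was large, but it describes classes that were cut on these same counts, and no test was made. Values are UMIs per 1000000 (CPM) of all UMIs of a class in a library, given for control diet 1, control diet 2, PLX5622 diet 1 and PLX5622 diet 2 in that order. Of 1056 genes with at least 100 CPM in all 4 libraries, 156 were at least 10 times the endothelial mean and 95 at least 100 times, while 2 were at a 10th or less. Of the 20 pericyte markers outside the rule, 18 were at least 10 times as high as in endothelial cells, with a median ratio of 384, where 679 of all 6783 genes with at least 20 CPM reached that ratio. The 25 genes with the highest ratios among those with 100 CPM in every library were Vtn, P2ry14, G0s2, Plxdc1, Pdgfrb, Kcnj8, Col1a2, Prelp, Ggt5, Atp13a5, S1pr3, Foxd1, Cspg4, Slc30a10, Ednra, Rgma, Slc6a20a, Itga7, Pcolce, Art3, Il34, Aspn, Gpx8, Kcne4 and Enpep. Some of these are carried largely by other members than the Atp13a5-detected ones: these held 33 of 152 Col1a2 UMIs (a gene of the fibroblast list), 40 of 145 Pcolce UMIs and 55 of 137 Prelp UMIs. In them the ratio was 664 in place of 1407 for Col1a2, 504 in place of 917 for Pcolce and 1003 in place of 1324 for Prelp.

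Receptors that tie pericytes to the endothelium were among the high genes. Of the 22 measured genes of the PDGF, Notch, TGF-beta and Tie list, 8 were at least 10 times the endothelial mean and 2 at a 10th or less, with a median ratio of 2.32. Pdgfrb (rule marker), the receptor for endothelial PDGF-B, stood at 2378, 1659, 1669 and 1388 CPM, against an endothelial mean of 1.18. Notch3, the mural cell Notch receptor, stood at 1154, 626, 856 and 759. Its target gene Heyl, which encodes a transcriptional repressor, had 385, 299, 161 and 170 CPM. Cspg4, encoding the NG2 proteoglycan, had 805, 653, 703 and 449 CPM. For Pdgfrb, Notch3 and Heyl the highest of the 4 values was that of control diet 1, the library without fibroblast-marked members, and the same library was highest for Cspg4.

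Genes of vascular tone were more uniform, and 16 of the 19 measured members of that list (at least 20 CPM) were at least 10 times the endothelial mean. Kcnj8 and Abcc9 encode the pore and the sulfonylurea receptor of the vascular KATP channel, and both were rule markers. Kcnj8 stood at 1014, 637, 1152 and 1089 CPM, and Abcc9 at 1679, 914, 1356 and 1079. The means in smooth muscle cells were 15.2 for Kcnj8 and 2.29 for Abcc9; since both genes chose the members, nothing is read from this gap.

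The soluble guanylate cyclase that senses nitric oxide was present with both subunits. Gucy1a1 had 839, 528, 559 and 230 CPM, and Gucy1b1 had 1084, 702, 957 and 499. The endothelin receptor gene Ednra had 210, 185, 220 and 240 CPM, P2ry14, a receptor for UDP-sugars, had 1084, 675, 593 and 509, and the sphingosine 1-phosphate receptor gene S1pr3 had 839, 392, 534 and 509. Gucy1a1, Gucy1b1 and Ednra were at similar levels in smooth muscle cells, where their means were 602, 537 and 253 CPM. Rgs5 had 11717, 5762, 7939 and 5733 CPM, against 246 in endothelial cells and 5418 in smooth muscle cells.

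Transporters were another part: 10 of 13 measured members of the list reached 10 times the endothelial mean. The list holds Atp13a5, a rule marker, so its level was set by the choice of members. It also holds the fibroblast marker Slc6a13 and the astrocyte marker Slc1a3. Fibroblast-marked barcodes held 128 of 160 Slc6a13 UMIs and 113 of 119 Slc1a3 UMIs. Slc6a20a, a proline transporter, had 735, 871, 924 and 789, and Slc19a1, the reduced folate carrier, had 525, 479, 517 and 469. The manganese exporter gene Slc30a10 had 245, 229, 263 and 250 CPM. These 3 genes varied less across libraries than Rgs5 did, and in smooth muscle cells their means were 49.2, 186 and 21.5 CPM.

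3 genes tied to mitochondria, picked after their values were seen, were high as well. Higd1b had 1399, 822, 1237 and 1238 CPM, Ndufa4l2 had 1644, 1072, 1339 and 1368, and Cox4i2, an alternative subunit of cytochrome c oxidase, had 1049, 647, 729 and 769. Their ratios to the endothelial mean were 338, 362 and 323, but fibroblast-marked members held no Higd1b or Cox4i2 UMI. The hypoxia and glycolysis list as a whole was not high: 4 of its 17 measured genes reached 10 times the endothelial mean, 1 was at a 10th or less and the median ratio was 1.37.

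Basement membrane genes were mixed: 9 of 23 measured members of the list reached 10 times the endothelial mean. The median ratio was 2.85. The 9 include the rule marker Vtn, whose level was set by the choice of members. Lama2 (175, 239, 347 and 270 CPM), encoding the laminin alpha-2 chain, was 642 times the endothelial mean. Lamc3 was 21.6 and Nid1, which encodes nidogen-1, 15.1 times as high. Col4a1 and Sparc, which endothelial cells also express, were only 1.90 and 1.27 times as high. Il34, a ligand of CSF1R, had 210, 299, 186 and 280 CPM in members and 0.29 in endothelial cells.

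**Figure D3:**
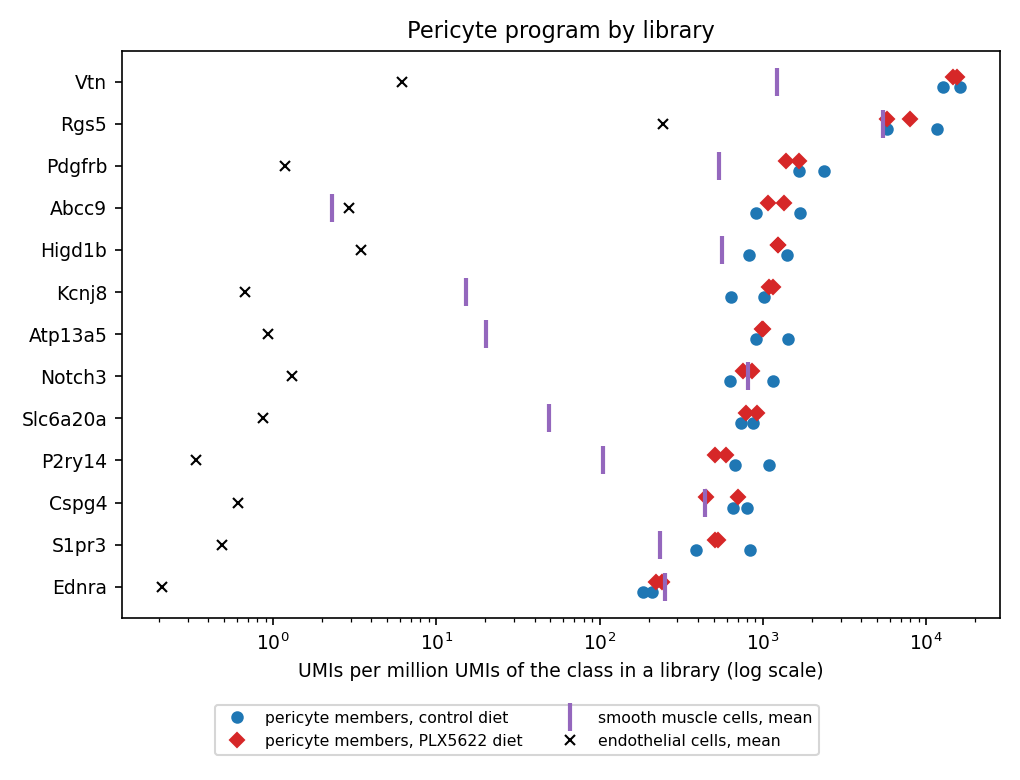
CPM of 13 program genes on a log axis: circles are the 2 control diet libraries, diamonds the 2 PLX5622 libraries, crosses the endothelial mean over libraries and bars the smooth muscle mean. Members lie right of the endothelial mean for every gene drawn, while the smooth muscle mean lies within or next to the member values for Rgs5, Notch3, Cspg4 and Ednra.

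Genes abundant in the fibroblast-marked barcodes differed far more between libraries than the program did; Dcn and Apod also served to define that subset. Dcn had 0, 1431, 940 and 499 CPM over the 4 libraries. Apod had 35.0, 9124, 5905 and 5463, and Ptgds 0, 27586, 2254 and 15031. Control diet 1 was lowest for each, and the control diets differed from each other more than either differed from a PLX5622 library in Dcn.

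The diet was compared over sums of UMIs per library, with 2 libraries against 2. No gene of the 2147 tested passed an adjusted p of 0.05 in edgeR's quasi-likelihood test (0 higher and 0 lower, 0.0% called), and the smallest adjusted p was 0.997. At an unadjusted p under 0.05 there were 44 genes (2.05%). DESeq2 and limma-voom also called none, with 4 and 138 genes at an unadjusted p under 0.05. A count of this kind has low power: in simulated data of the same depth the test found 4.48% of genes changed 2-fold, 53.7% of those changed 4-fold and 78.8% of those changed 8-fold. In the same data, 5 unchanged genes were called. The simulation gave all genes 1 common dispersion and all libraries the same mix of members. Its rates therefore do not measure the power for genes held by few barcodes, such as Mt1 and Cebpb below. In endothelial cells of the same libraries, summed from 13992 barcodes, 139 of 12889 genes were called (1.08%).

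Mt1, encoding the metal-binding protein metallothionein 1 (chromosome 8, 94179082 to 94180327, plus strand, GRCm38), was one of the genes in question. It had 4, 273, 255 and 123 UMIs, or 140, 1485, 2161 and 1228 CPM. The diets overlapped, because control diet 2 lay between the 2 PLX5622 libraries and control diet 1 far below all. The log2 fold change, PLX5622 over control, was 0.91 ± 0.89 (SE), with an adjusted p of 0.997 in edgeR. The metallothionein gene Mt2 had 0, 18, 15 and 11 UMIs and a log2 fold change of 0.58 ± 0.59, with an adjusted p of 0.997 in edgeR.

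Mt1 counts lay in a few barcodes. Of the 113 members, 76 held no Mt1 UMI, and 11 with at least 10 UMIs held 595 of the 655. The 3 highest barcodes, with 132, 108 and 106 UMIs, held 52.8%. Of those 11 barcodes, 7 were fibroblast-marked and 4 Atp13a5-undetected, and none was Atp13a5-detected. The 15 Atp13a5-undetected members held 261 of the 655 Mt1 UMIs (39.8%). Rgs5 was seen in all 15 of them (421 UMIs), Higd1b in 14, Notch3 in 13 and Kcnj8 in 12. Their median fibroblast marker share was 0.058%. Mt1 values of the Atp13a5-detected members, given below, therefore do not stand for all members with pericyte markers. In PLX5622 diet 2, 1 fibroblast-marked barcode held 86.2% of the library's Mt1 UMIs in members.

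In the Atp13a5-detected members, Mt1 had 4, 11, 7 and 4 UMIs, or 140, 109, 107 and 63.1 CPM, and the 4 libraries lay close together with no PLX5622 library above a control. These 85 barcodes held 60.0% of member UMIs and 3.97% of member Mt1 UMIs. The same gene stood at 713, 869, 765 and 805 CPM in endothelial cells, 2063, 3094, 2471 and 2384 in smooth muscle cells, and 388, 590, 448 and 558 in mixed droplets. Mt1 was thus lower in the Atp13a5-detected members than in each of those classes in every library. Endothelial RNA at the share measured by the panel would bring 0.620, 4.27, 2.88 and 2.18 Mt1 UMIs to the Atp13a5-detected members, beside the 4, 11, 7 and 4 seen. Over all members it would bring 0.620, 11.5, 4.47 and 2.67, beside 4, 273, 255 and 123. Its part in these counts was not tested.

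Cebpb, encoding the transcription factor C/EBP beta (chromosome 2, 167688915 to 167690418, plus strand, GRCm38), gave a like picture. It had 10, 135, 66 and 78 UMIs, or 350, 735, 559 and 779 CPM, and the 2 diets overlapped. The log2 fold change was 0.23 ± 0.44 (SE), with an adjusted p of 0.997 in edgeR. Barcodes with at least 10 Cebpb UMIs were 10 in number, 6 of them fibroblast-marked and 4 Atp13a5-undetected, and they held 209 of the 289 UMIs.

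In the Atp13a5-detected members Cebpb had 10, 16, 8 and 19 UMIs, or 350, 158, 122 and 300 CPM. The order of the libraries there was control diet 1, PLX5622 diet 2, control diet 2 and PLX5622 diet 1, so the diets overlapped here too. Endothelial cells had 83, 91, 84 and 80 CPM and smooth muscle cells 1566, 1964, 1602 and 1632. Endothelial RNA would bring at most 1.20 Cebpb UMIs to a library's members.

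**Figure D4:**
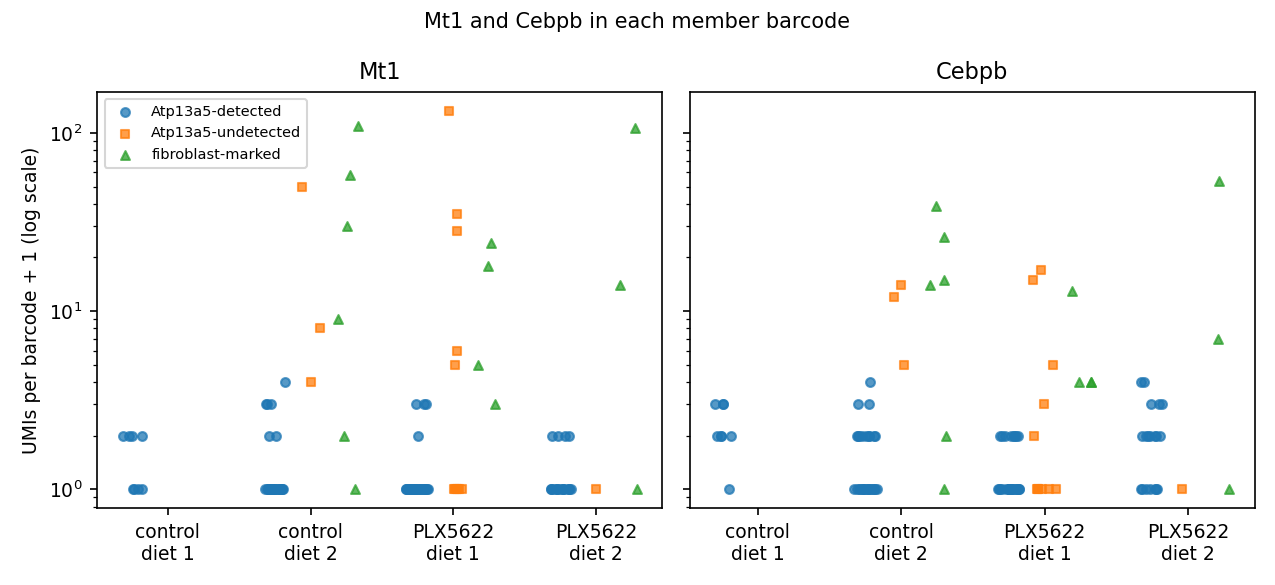
UMIs plus 1 of Mt1 (left) and Cebpb (right) in each of the 113 members on a log axis, by library, with symbols for the 3 subsets. All barcodes with at least 10 UMIs of either gene are squares or triangles, that is Atp13a5-undetected or fibroblast-marked.

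The calls for Mt1 and Cebpb depended on which barcodes were let in. With at most 5 UMIs over the endothelial panel added to the rule, Mt1 rose by a log2 fold change of 2.73 ± 0.36 (adjusted p = 2.1e-05 in edgeR) and Cebpb by 1.65 ± 0.38 (adjusted p = 0.0296), among 8 genes called of 1572 (0.509%). That limit took 10 of the 38 members from control diet 2, including 3 of its 6 fibroblast-marked and all 3 of its Atp13a5-undetected barcodes. Mt1 UMIs in control diet 2 went from 273 to 41, while PLX5622 diet 1 kept 254 of its 255. PLX5622 diet 1 kept all 4 of its fibroblast-marked barcodes and 9 of its 11 Atp13a5-undetected ones. Before the limit, its fibroblast-marked barcodes held 46 Mt1 UMIs and its Atp13a5-undetected ones 202. PLX5622 diet 1 kept 38 of 44 members. PLX5622 diet 2 kept 18 of 23 members, 2 of its 3 fibroblast-marked barcodes and 109 of 123 Mt1 UMIs. The limit is a count and not a share of UMIs, and member UMIs of control diet 2 went from 183792 to 97781.

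The other 6 genes called with this limit were Apoe, Cxcl1, Gjb2, Junb, Klf2 and Slc7a11, all higher. Over all members, between 56.2% (Mt1) and 99.7% (Slc7a11) of the UMIs of the 8 genes lay in fibroblast-marked barcodes. These shares do not describe the smaller set of members within the limit, from which the calls came. Without control diet 2, which left control diet 1 with no fibroblast-marked barcode as the only control, Mt1 gave 3.76 ± 0.51 (adjusted p = 2.1e-05), among 20 genes called of 2685 (0.745%). Without control diet 1 it gave 0.14. Without the 13 fibroblast-marked members it gave 1.47 ± 1.91 and did not pass, and with the Atp13a5-detected members alone its counts were too low to enter the test.

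**Figure D5:**
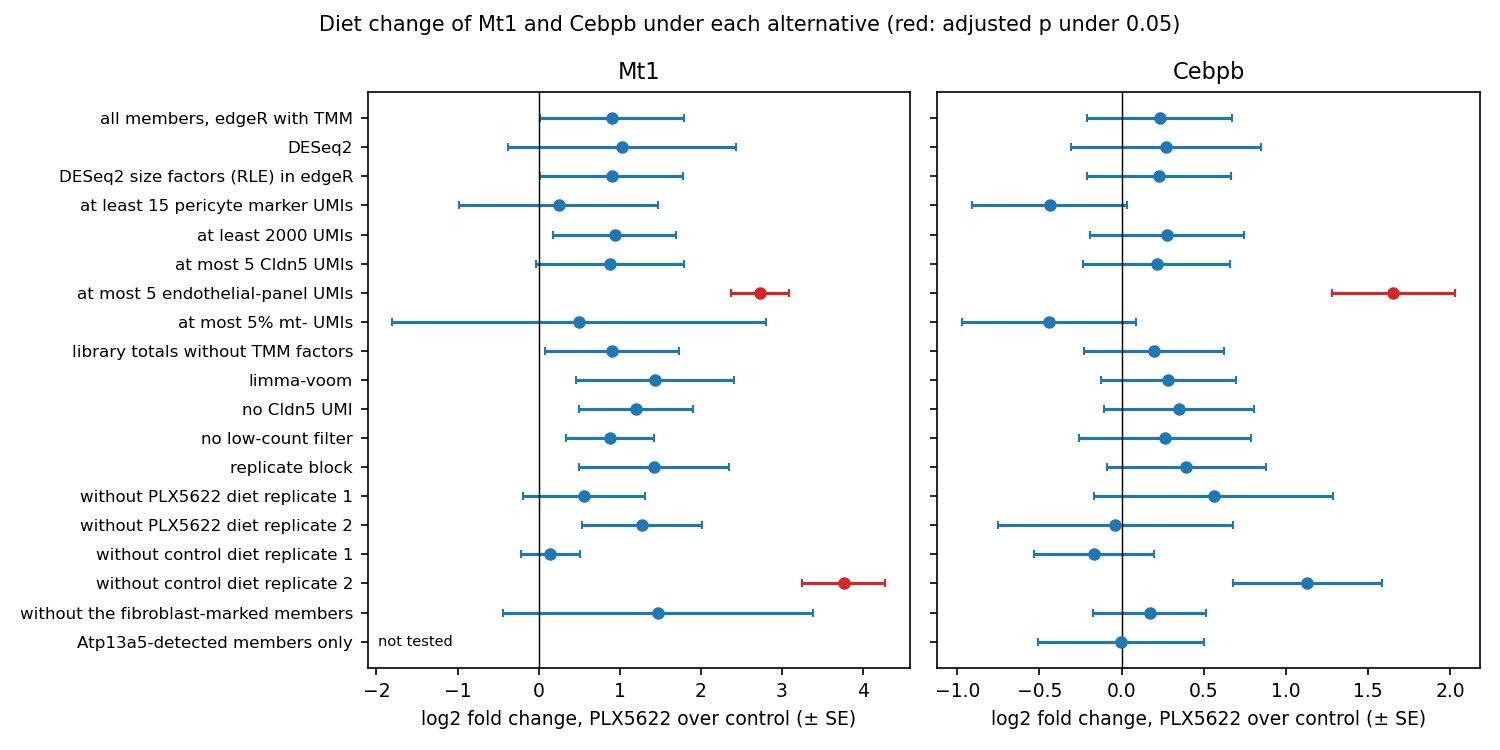
Log2 fold change (PLX5622 over control) of Mt1 and Cebpb in member sums under each alternative, with bars of 1 SE; red points have an adjusted p under 0.05. Mt1 passes only with the endothelial-panel limit and without control diet 2, Cebpb only with the former, and 5 of the Cebpb values lie below 0.

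Other transcription factors and stress genes were also read without a call. Cebpd, a relative of Cebpb, had 4, 41, 43 and 58 UMIs (140, 223, 364 and 579 CPM), with both PLX5622 libraries above both controls. Its log2 fold change was 1.27 ± 0.44 (adjusted p = 0.997 in edgeR). Endothelial cells had nearly the same size of change for Cebpd, 1.00 ± 0.10 (adjusted p = 5.8e-05), and the difference between the classes was 0.37 ± 0.49, which did not pass. In the Atp13a5-detected members Cebpd had 140, 158, 275 and 426 CPM, again with both PLX5622 libraries above both controls, as had 231 of the 1221 genes tested there (18.9%). Genes with both PLX5622 libraries above both controls were 307 of the 2147 tested (14.3%), and 336 (15.6%) had both below.

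The 3 sterol genes named here passed in endothelial cells and had like-sized values in members. They were picked for the smallest p in members. Only 1 of 21 cholesterol synthesis genes and 6 of 19 genes of sterol uptake, feedback and efflux could be tested in members. Mylip, which encodes a ligase that degrades the LDL receptor, had 12, 33, 11 and 12 UMIs, and its log2 fold change was -1.17 ± 0.50 in members and -1.14 ± 0.12 (adjusted p = 0.00013) in endothelial cells. Fdps, a cholesterol synthesis enzyme, had 0, 7, 14 and 10 UMIs. Its change was 1.78 ± 0.86 in members and 1.24 ± 0.12 (adjusted p = 3.7e-05) in endothelial cells. Srebf2, the regulator of that pathway, changed by 0.76 ± 0.51 in members and 0.73 ± 0.09 in endothelial cells. None of the 3 passed in members (adjusted p = 0.997 in edgeR each), and the 2 fits come from the same libraries.

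Among the 10 genes with the smallest p in members, the immediate early gene Fosb had 57, 462, 124 and 93 UMIs (1994, 2514, 1051 and 929 CPM) and a log2 fold change of -1.15 ± 0.38 (adjusted p = 0.997 in edgeR). In the Atp13a5-detected members the gap was wider: 57, 205, 42 and 14 UMIs, or 1994, 2029, 643 and 221 CPM. The diets did not overlap, and without the highest barcode of each library the values were 1263, 1820, 525 and 171 CPM.

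Jun, another immediate early gene, had 2378, 2435, 1178 and 458 CPM in the Atp13a5-detected members. Fos had 1784, 1534, 995 and 695, and Egr1 1644, 1049, 474 and 710. In PLX5622 diet 2, 1 barcode each held 54.5% of the Fos UMIs and 60.0% of the Egr1 UMIs. In control diet 1, 1 barcode held 53.2% of the Egr1 UMIs. Without the highest barcode of each library, Fos had 1426, 1434, 877 and 334 CPM, and Egr1 926, 917, 385 and 302. For each of these genes both PLX5622 libraries were below both controls in that subset, as were 222 of its 1221 tested genes (18.2%). Endothelial cells had a Fosb change of -0.25 ± 0.15 and a Jun change of -0.27 ± 0.18, neither of which passed. Fos (-0.17 ± 0.17) and Egr1 (-0.06 ± 0.15) did not pass there either. In all members the log2 fold changes were -1.04 ± 0.41 for Jun, -0.16 ± 0.46 for Fos and -0.24 ± 0.39 for Egr1 (adjusted p = 0.997 in edgeR each). The immediate early list also holds genes that respond to tissue dissociation, and 12 of its 16 tested members had a negative change in all members, with a median of -0.24 against 0.03 over all genes and 3 at an unadjusted p under 0.05.

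The other genes of smallest p were spread over functions. Prss23, a serine protease gene, had 12, 43, 12 and 12 UMIs and a log2 fold change of -1.34 ± 0.45. Mdh1, malate dehydrogenase of the cytosol, had 2, 26, 34 and 31 UMIs (1.27 ± 0.43). The circadian repressor gene Bhlhe40 had 0, 4, 13 and 13 UMIs (2.65 ± 0.92). Dbi (2.16 ± 0.71) owed 75 of its 91 UMIs in PLX5622 diet 2 to 1 barcode. Eif1b (1.41), 2310022B05Rik (1.71), Tuba1b (1.15) and Gstm1 (-1.17) completed the 10 with Cebpd and Fosb, all at an adjusted p of 0.997 in edgeR.

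None of the 17 functional lists had a member past the threshold. The vascular tone list had 16 of 22 members tested, 6 with a positive and 10 with a negative change, and a median of -0.18 against 0.03 over all genes. Its smallest p belonged to Prkg1, the cyclic GMP-dependent kinase (-0.80 ± 0.45), and to Kcnj8 (0.56 ± 0.38). Kcnj8 is a rule marker whose counts helped to choose the members, so nothing is read from its change. The PDGF, Notch, TGF-beta and Tie list had 15 tested, 12 of them negative (median -0.29), led by Heyl (-0.94 ± 0.39) and Cdh2 (-0.81 ± 0.47), which encodes N-cadherin. Basement membrane genes had 14 of 19 positive (median 0.21), led by p in Lamc3 (0.74 ± 0.43) and Lama4 (-0.83 ± 0.51).

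Transporter genes had 6 of 10 tested members positive (median 0.08), with Slc1a3 (0.96 ± 0.70; 0, 45, 28 and 46 UMIs) and Slc12a2 (-0.41 ± 0.40) at the smallest p. All 12 mitochondrially encoded genes had a positive change (median 0.31 against 0.03 over all genes), and none reached an unadjusted p under 0.05. The smallest p belonged to mt-Nd3 (0.62 ± 0.38) and mt-Nd4l (0.48 ± 0.40). In PLX5622 diet 2, 1 barcode each held 77 of 211 mt-Nd3 UMIs and 42 of 100 mt-Nd4l UMIs. Heat shock genes had 8 of 12 positive (median 0.53), led by Hspd1 (1.20 ± 0.50). Inflammatory genes had 7 of 8 negative (median -0.50), led by Steap4 (-2.48 ± 0.93), for which 51 of 91 UMIs lay in 1 barcode of control diet 2. The C/EBP and glucocorticoid list had 3 positive and 4 negative of 7 tested, with Klf9 (-1.01 ± 0.42), a Krüppel-like factor gene, next to Cebpd. Metal handling genes had 4 of 6 positive (median 0.26), and the smallest p was that of Cp, the ferroxidase ceruloplasmin (-0.44 ± 0.39), which rose in endothelial cells by 0.53 ± 0.10 (adjusted p = 0.0158 in edgeR).

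The smaller lists gave single values. Ifi27 (0.89 ± 0.50) was the only interferon response gene tested, and Fdps the only one of cholesterol synthesis. The sterol uptake list had 4 of 6 positive, the hypoxia and glycolysis list 5 of 8, with Egln1 (-0.69 ± 0.45) and Tpi1 (0.60 ± 0.40), and the unfolded protein list 7 of 8, with Atf4 (-0.95 ± 0.45) the exception. All 4 tested genes of the CSF1R-related list were negative (median -0.44). Its smallest p belonged to Flt1 (0, 60, 16 and 4 UMIs), an endothelial gene, and Pdgfra (0, 35, 14 and 8 UMIs), a fibroblast gene. Both directions rested on control diet 2, without which the changes were 5.91 for Flt1 and 6.08 for Pdgfra. Of the 80 Flt1 UMIs, 39 lay in 1 barcode of that library. No cell cycle gene had enough counts to be tested.

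Mixed droplets, which meet the same marker limits but hold at least 3 Cldn5 UMIs, were the nearest class for comparison. There, 5 of 3726 genes were called (0.134%), all higher on PLX5622: the haemoglobin genes Hbb-bs, Hba-a1, Hbb-bt and Hba-a2 and the interferon-stimulated gene Isg15. Hbb-bs had 0, 15, 2107 and 5720 UMIs there, with 4368 in 1 droplet, and 1, 3, 3 and 5 in members. Isg15 had 2, 29, 33 and 73 UMIs there, and 0, 6, 5 and 4 in members.

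The difference in diet change between members and mixed droplets passed for 5 of 3095 genes (0.162%): Hbb-bs, Hba-a1, Hba-a2, Kdr and Cpe. Against endothelial cells it passed for 3 of 11877 genes (0.0253%): Ccl2, Fabp7 and Scd1. For Ccl2, Fabp7, Scd1 and Cpe the counts sat mostly in 1 barcode each, 101 of 132 Ccl2 UMIs, 358 of 362 Fabp7 UMIs, 16 of 17 Scd1 UMIs and 46 of 63 Cpe UMIs. The difference for Mt1 against endothelial cells was 1.31 ± 0.57 and for Cebpb 0.41 ± 0.46; both had an adjusted p of 1.0 in edgeR.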

How the data were processed

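The authors deposited, per the file headers, unnormalised UMI counts per gene and barcode for 4 libraries; the submitters' processing notes name Cell Ranger 6.0.1 and Seurat 4.0 and the builds mm10 and mm39 with no role. Files held 567554 to 872190 barcodes each, so empty droplets are among them; doublets were not called here, and mixed droplets were described as a class. Gene coordinates are from GENCODE M21 (GRCm38), in which 32235 of 32285 gene identifiers were found. The members and lists, and Mt1 and Cebpb, were chosen with earlier results of these data known; the subsets by Atp13a5 and fibroblast markers were drawn after seeing the data. Named genes are the 10 with the smallest p, Mt1, Mt2, Cebpb and Cebpd, up to 2 per list, 5 per interaction and 25 of the program; subset genes and Plvap, Npy and the like were chosen after their values were seen. No unassigned columns were used.

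Counts were summed per library and class and tested with edgeR 4.0.16 (TMM, filterByExpr, robust quasi-likelihood, two-sided, Benjamini-Hochberg over all tested genes, 0.05) in R 4.3.3. Interactions used 8 sums with the library as block. DESeq2 1.42.0, limma 3.58.1 voom, other scalings, limits and each library left out were alternatives. The test was checked on simulated counts. CPM values and shares were computed with Python 3.11.15. The 4 libraries differed beyond sampling noise (chi-square per degree of freedom 2.06 to 2.74 between member sums).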

Additional observations from a re-analysis of the deposited data

Results flagged for a closer look

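For 8 genes the diet change differed between the members and another class by the interaction test of edgeR. Against endothelial cells, the log2 change in members minus that in endothelial cells was -9.91 ± 1.27 for the chemokine gene Ccl2 (adjusted p = 6.7e-11), for which members held 0, 130, 2 and 0 UMIs. It was 7.0 ± 1.18 for Fabp7, a fatty acid binding protein gene (adjusted p = 0.00014; 1, 2, 1 and 358 UMIs), and 14.54 ± 3.31 for the desaturase gene Scd1 (adjusted p = 0.0457; 0, 0, 1 and 16 UMIs). Scd1 and Ccl2 have libraries at 0 UMIs, so these fitted values depend on the prior count and are no bounds.

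Against mixed droplets, the difference was -8.05 ± 1.27 for Hbb-bs (adjusted p = 2.2e-05), -10.02 ± 1.69 for Hba-a1 (adjusted p = 6.5e-05) and -11.09 ± 2.23 for Hba-a2 (adjusted p = 0.0044), all haemoglobin genes. It was -4.45 ± 0.98 for the VEGF receptor gene Kdr (adjusted p = 0.0044; members 0, 26, 1 and 0 UMIs, 17 of them in 1 barcode), and 3.7 ± 0.84 for the carboxypeptidase gene Cpe (adjusted p = 0.0063; members 0, 10, 5 and 48 UMIs). Kdr and Cpe in members, and Hbb-bs in mixed droplets, also have libraries at 0 UMIs, so the same limit holds for their fitted values.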

How the results depend on the processing

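The count of genes higher on PLX5622 in pericytes was 0 and became 8 with the endothelial-panel limit and 0 to 23 without 1 library (23 without PLX5622 diet 1, 19 without control diet 2). The count lower was 0 and became 2 with no low-count filter (Plvap and Ccl7) and 0 to 18 without 1 library (18 without control diet 1, 3 without PLX5622 diet 1, 1 without control diet 2). In Atp13a5-detected members alone, an alternative added after seeing the data, 1 of 1221 genes was higher (Uqcrb) and 4 were lower (Fosb, Jun, Fos and Egr1), 0.41% in all; with 1 library also left out, 0 to 1 were higher and 1 to 4 lower. Fosb passed in each of these 4 (log2 fold change -3.15 to -1.64, adjusted p in edgeR 4.7e-09 to 0.044), but the subset was trimmed on seen values, so this supports nothing.

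Mt1 passed with the panel limit (2.73) and ranged from 0.14 to 3.76 without 1 library (3.76 without control diet 2). Cebpb passed with the panel limit (1.65) and turned negative with at least 15 marker UMIs (-0.44), at most 5% mitochondrial UMIs (-0.44), Atp13a5-detected members only (-0.0039), without PLX5622 diet 2 (-0.04) and without control diet 1 (-0.17), a range of -0.17 to 1.13 without 1 library. Without 1 library, Cp ranged from -0.74 to 0.14, Nfkbia from -1.24 to 1.06, Flt1 from -2.36 to 5.91 and Pdgfra from -0.96 to 6.08, each positive only without control diet 2. Nfkbia (0.49) did so with the panel limit, and Ifi27 turned negative with at most 5% mitochondrial UMIs (-0.13). The cause of these shifts was not tested.

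Without 1 library, calls in mixed droplets were 5 to 60 (60 without control diet 2, 8 without control diet 1 and 8 without PLX5622 diet 2). Differences from endothelial cells were 1 to 14 (14 without PLX5622 diet 1, 11 without either control, 1 without PLX5622 diet 2), and from mixed droplets 4 to 11 (11 without control diet 2, 8 without control diet 1). Without fibroblast-marked members, 1 gene differed from endothelial cells, and with Atp13a5-detected members only 1 (Fosb). With the replicate block, 0 genes were higher and 0 lower in pericytes, 5 changed in mixed droplets, and Mt1 gave 1.42 and Cebpb 0.39; same-numbered samples did not deviate together (r = -0.0005). Where 1 library is left, it is assumed to vary like the other diet's. The share of members moved by less than its spread in every alternative run, with differences of 0.123 to 0.306 points. Depth limits all of this: members held 28590 UMIs in control diet 1.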
